A study of Mus musculus with 13 samples.

Results

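Lyz1, Lyz2, Mmp7, Ang4, Pla2g2a and Itln1 encode the lysozymes and the other non-defensin proteins of the Paneth cell granule. They were chosen by symbol, and all 6 were found among the 35791 genes measured. RNA was sequenced from Paneth cells and from intestinal stem cells of young and aged mice in a study of how Wnt signalling changes with age in the crypt. Young mice were 2 to 3 months old and aged mice 20 to 22 months. All groups carried the Lgr5-eGFP-IRES-CreERT2 reporter on a mixed C57Bl6/SV129 background, and no group received a treatment named in the labels. Paneth cells gave 4 libraries from young and 3 from aged mice, and stem cells gave 3 from each age. The series' design text speaks of triplicates, and the labels do not say how the fourth young Paneth library came about. Crypts came from the proximal small intestine after removal of the villi. The labels describe the source of a library as a male reporter mouse, and how Paneth and stem cells were separated is not given in the sources used here. Whether libraries of 1 group stem from different animals is not stated, and p-values measure the spread between libraries, which may be technical.

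Paneth cells lie at the base of the small intestinal crypt and release granules of antimicrobial proteins into its lumen. Lysozyme cleaves the peptidoglycan of bacterial cell walls. Mouse Lyz1 is the form of Paneth cells, and Lyz2 is the form of macrophages and other myeloid cells. Matrilysin, encoded by Mmp7, is the metalloproteinase that cuts mouse pro-alpha-defensins to their active form. Ang4 is an angiogenin-type ribonuclease of Paneth cells with antimicrobial activity. Pla2g2a encodes a secreted phospholipase A2 that breaks down bacterial membrane phospholipids, and its C57BL/6 allele carries a frameshift. Itln1 encodes intelectin, a lectin that binds microbial sugars. In Paneth cells, Wnt signalling through beta-catenin and TCF factors is known to drive several granule genes, Mmp7 among them.

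The members lie on 5 chromosomes, and positions are those of the GRCm38.p6 assembly. Lyz1 (Entrez 17110) lies at chr10:117287795-117292868 and Lyz2 (Entrez 17105) at chr10:117277541-117282272, both on the minus strand with 5522 bases between them. Mmp7 (Entrez 17393) lies at chr9:7692090-7699585 on the plus strand, where an antisense transcript, AV064505, overlaps it. Ang4 (Entrez 219033) lies at chr14:51763892-51773590 and Itln1 (Entrez 16429) at chr1:171518123-171535325, both on the minus strand. Pla2g2a (Entrez 18780) lies at chr4:138831857-138835189 on the plus strand, and RefSeq lists it in this assembly as a transcribed pseudogene. Pla2g5 overlaps it on the other strand. Whether counting used strand is not given in the sources used here, and reads of overlapping genes may then be assigned to either. Pla2g5 had 8 to 33 reads in Paneth libraries and 168 to 520 in stem libraries, while Pla2g2a had 30 to 985 and 9 to 82.

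The lysozyme genes are near-copies, and the results below compare reads assigned to each, so the first 300 of their 447 coding bases are shown. The sequences are from GENCODE M21 transcripts on GRCm38, written 5′ to 3′ on the minus strand. Capitals mark the bases at which they differ.
Lyz1, coding exons within chr10:117288583-117292838: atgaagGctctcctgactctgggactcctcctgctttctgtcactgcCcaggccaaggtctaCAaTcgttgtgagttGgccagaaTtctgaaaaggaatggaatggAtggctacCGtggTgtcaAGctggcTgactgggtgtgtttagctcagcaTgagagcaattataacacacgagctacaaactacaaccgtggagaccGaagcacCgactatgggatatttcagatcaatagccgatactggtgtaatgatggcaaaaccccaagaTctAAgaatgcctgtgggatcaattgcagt
Lyz2, coding exons within chr10:117278121-117282242: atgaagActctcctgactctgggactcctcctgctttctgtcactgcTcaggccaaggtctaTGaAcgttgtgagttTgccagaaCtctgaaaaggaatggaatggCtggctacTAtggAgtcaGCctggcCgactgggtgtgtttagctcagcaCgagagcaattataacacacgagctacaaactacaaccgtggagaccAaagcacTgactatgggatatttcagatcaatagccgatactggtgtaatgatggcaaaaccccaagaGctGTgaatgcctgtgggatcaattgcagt
The 447 coding bases differed at 22 positions, 20 of them in the stretch shown, an identity of 95.1%, and the longest stretch without a difference was 118 bases. Of the 1214 windows of 50 bases in the Lyz1 transcript, 195 (16.1%) also occurred in Lyz2. A read that falls wholly in such a window cannot be assigned to 1 of the genes. How shared reads were counted is not given in the sources used here. Lyz2 had 0.2012% to 0.584% of the lysozyme reads in 11 of the 13 libraries, far less than the share of Lyz1 windows it could match. In those libraries reads of Lyz2 and misassigned reads of Lyz1 cannot be told apart, and Lyz2 values there are uncertain.

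The 250 bases before each lysozyme start site were less alike than the coding sequences. They are given here from RefSeq, again 5′ to 3′ on the minus strand, with capitals at the bases that differ in the alignment. Reads assigned to Lyz1 and Lyz2 kept a near-constant ratio in Paneth libraries, which misassigned Lyz1 reads would also give, and varied more in stem libraries. Whether these bases bear on the ratio was not tested.
Lyz1, chr10:117292869-117293118: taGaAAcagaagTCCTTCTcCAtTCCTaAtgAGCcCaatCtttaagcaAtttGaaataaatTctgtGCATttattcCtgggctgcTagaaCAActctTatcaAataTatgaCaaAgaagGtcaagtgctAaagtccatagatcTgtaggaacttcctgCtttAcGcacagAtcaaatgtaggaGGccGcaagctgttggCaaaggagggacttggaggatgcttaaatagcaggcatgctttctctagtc
Lyz2, chr10:117282273-117282522: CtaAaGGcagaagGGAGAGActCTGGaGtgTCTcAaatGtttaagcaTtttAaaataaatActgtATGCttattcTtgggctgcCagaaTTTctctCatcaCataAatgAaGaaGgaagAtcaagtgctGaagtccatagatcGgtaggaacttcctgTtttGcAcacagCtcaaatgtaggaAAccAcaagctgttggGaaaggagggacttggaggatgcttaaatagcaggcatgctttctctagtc
The promoters matched at 200 of 252 aligned columns (79.4%), and 4 columns held a gap.

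A TCF-type motif was searched in the RefSeq promoter windows of 300 bases, 250 before and 50 after the start. Promoter entries were found for 5 of the 6 members. CTTTGAT or CTTTGAA, on either strand, occurred in Mmp7 and in none of the other 4 with an entry, against 8.65% of 32851 promoters. The TATA-type motif TATAAA, searched on the given strand, also occurred in Mmp7 and in none of the other 4, against 8.32% of promoters. The Mmp7 windows around each match are shown with the motif in capitals. These matches are a description of letters, not of binding.
Mmp7, chr9:7691956-7691985, TATAAA from base -123: cctcctgccaaTATAAAaacacaatacttc
Mmp7, chr9:7692053-7692082, TATAAA from base -26: ctgagaagccaTATAAAtttctccagcccc
Mmp7, chr9:7692083-7692112, CTTTGAT in reverse complement from base 5: tgtcaggaaacATCAAAGtagctctgagaa

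Library totals were 4210439 to 8612228 reads for Paneth cells and 8398966 to 19740104 for stem cells. The 3 loci with most reads took 26.75% to 66.24% of Paneth reads and 4.026% to 10.31% of stem reads. Paneth libraries were made with a SMARTer pico kit and stem libraries by standard Illumina protocols, so the effects of kit and of cell type cannot be told apart. Of the 12 other Paneth markers, 11 passed the test as higher in young Paneth than young stem libraries. In aged mice 9 of the 12 were higher and 3 lower in Paneth libraries, with 5 passing as higher and 1 as lower. Lgr5 was at 71.64 to 114.8 CPM (read counts scaled to library size) in stem libraries and 14.73 to 47.54 CPM in Paneth libraries. Summed enterocyte markers were at 2216 to 38750 CPM in Paneth libraries and 385.2 to 743.3 CPM in stem libraries. The labels call all animals male, but Xist was at 322 to 2880 CPM in 12 of the 13 libraries. Young stem 1, at 12.65 CPM of Xist and 44.01 CPM of Ddx3y, was the only library that stood apart in these genes. Stem results are therefore also given without it.

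Lyz1 and Itln1 made up most of the reads of the 6 genes in every library. Values are in CPM after trimmed-mean (TMM) scaling over all 13 libraries, and ± is the SD between libraries. Per kilobase of transcript, the order in young Paneth cells was Lyz1 (mean 11600 CPM per kb), Itln1 (7415), Ang4 (984), Mmp7 (247), Pla2g2a (131) and Lyz2 (50.4). This order held in 4 of 4 young Paneth and 3 of 3 aged Paneth libraries for each pair of neighbours. Within young Paneth libraries, Lyz1 was 1.09-fold to 1.78-fold above Itln1, and Itln1 3.61-fold to 8.29-fold above Ang4. Ang4 was 3.32-fold to 9.11-fold above Mmp7, Mmp7 1.61-fold to 2.95-fold above Pla2g2a, and Pla2g2a 1.67-fold to 2.85-fold above Lyz2. The levels themselves spread far more between libraries, as in Lyz1 with an SD of 8398 CPM per kb. In young stem libraries Pla2g2a was above Lyz2 in 1 of 3. Together the 6 genes took 2.954%, 1.144%, 1.714% and 0.2347% of the reads in young Paneth 1 to 4. They took 1.361%, 0.1862% and 0.5001% in aged Paneth 1 to 3. In stem libraries their share was 0.04746% to 0.1825%. Among Paneth libraries, young Paneth 4 and aged Paneth 2 were lowest.

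**Figure D1:**
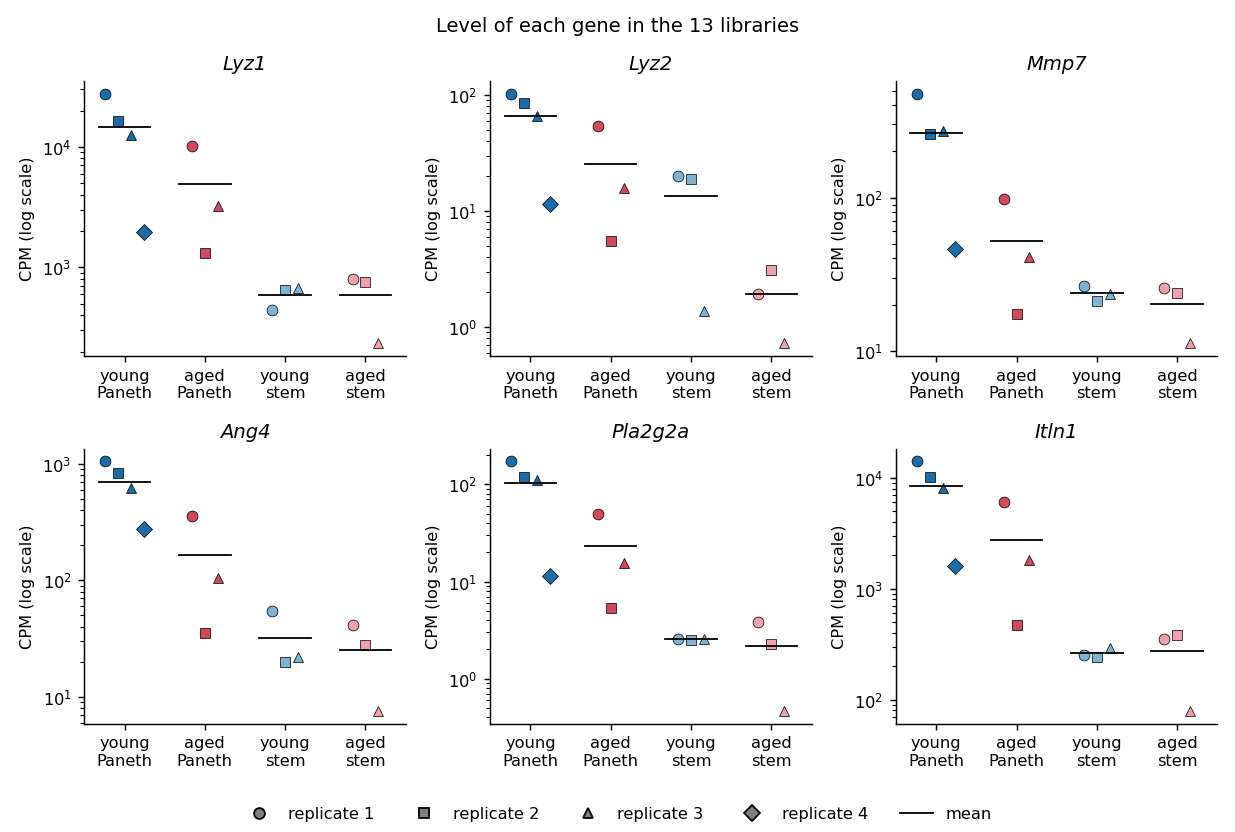
CPM of each of the 6 genes in every library, on a log scale, by group (young Paneth n = 4, aged Paneth n = 3, young stem n = 3, aged stem n = 3). Each point is a library and each line a group mean, and young Paneth 4 (Lyz1 at 1958 CPM) lies between aged Paneth 2 and aged Paneth 1 for all 6 genes.

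With age, Paneth libraries had lower mean levels of all 6 genes, with log2 changes from -2.33 (Mmp7) to -1.40 (Lyz2), but none passed the test. In the quasi-likelihood test of edgeR, adjusted over all genes by the Benjamini-Hochberg method, 0 of 6 had an adjusted p under 0.05, against 0.0142% of the 14106 genes tested. At an unadjusted p under 0.05 there were 3, Mmp7, Ang4 and Pla2g2a, and 1189 of all genes (8.43%). DESeq2 called 0 of the 6 and 0.808% of all genes. The limma-voom fit with sample weights called 6 of 6 as lower, with adjusted p from 0.0168 to 0.0442, where 12% of all genes (1686) passed in either direction. A log2 change below 0 was found for 50.2% of all genes tested. Libraries of the same age differed widely for every member. Among young Paneth libraries the highest was 3.783-fold (Ang4) to 14.98-fold (Pla2g2a) above the lowest. Among aged ones it was 5.618-fold (Mmp7) to 12.8-fold (Itln1) above the lowest. Over the 7 Paneth libraries of both ages together, the fold was 18.72 to 32.35.

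Lyz1 was at 27667, 16345, 12633 and 1958 CPM in young Paneth 1 to 4 and at 10100, 1322 and 3257 CPM in aged Paneth 1 to 3. Young Paneth 1 to 3 were above all aged ones, and young Paneth 4 was below 2 of the 3. The means were 14651 ± 10606 (SD, n = 4) and 4893 ± 4612 (SD, n = 3), a log2 change of -1.57 ± 0.96 (SE), with an edgeR adjusted p of 0.658. Lyz2 followed the same order of libraries at a far lower level, within the limit on its reads given with the sequences. It was at 103, 85.3, 65.3 and 11.5 CPM in young Paneth 1 to 4 and at 54.5, 5.50 and 15.9 CPM in aged Paneth 1 to 3. Its log2 change was -1.40 ± 0.81, with an edgeR adjusted p of 0.642.

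Mmp7, the enzyme that activates the defensins, had the largest log2 change of the 6. It was at 478, 259, 271 and 46.0 CPM in young Paneth 1 to 4 and at 97.7, 17.4 and 41.1 CPM in aged Paneth 1 to 3. All aged libraries but the first lay below all young ones, so 11 of 12 pairs of an aged and a young library had the lower value in the aged. The means were 263 ± 176 (SD, n = 4) and 52.1 ± 41.3 (SD, n = 3), a log2 change of -2.33 ± 0.77 with an edgeR adjusted p of 0.534.

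Ang4 and Pla2g2a, the second listed as a transcribed pseudogene in this assembly, had RNA changes of like size. Ang4 was at 1053, 835, 625 and 278 CPM in young Paneth 1 to 4 and at 357, 35.3 and 104 CPM in aged Paneth 1 to 3. Again 11 of 12 pairs were lower in the aged library, with the exception of aged Paneth 1 against young Paneth 4. Its log2 change was -2.07 ± 0.75 with an edgeR adjusted p of 0.548. Pla2g2a was at 172, 119, 112 and 11.5 CPM in young Paneth 1 to 4 and at 49.0, 5.32 and 15.7 CPM in aged Paneth 1 to 3. Young Paneth 4 was below 2 of the aged libraries, and the log2 change was -2.16 ± 0.88 with an edgeR adjusted p of 0.571.

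Itln1, the lectin, was at 14043, 10108, 8072 and 1619 CPM in young Paneth 1 to 4 and at 6052, 473 and 1800 CPM in aged Paneth 1 to 3. Its pattern over libraries was that of Lyz1, with young Paneth 4 between the aged libraries. The log2 change was -1.59 ± 0.94 with an edgeR adjusted p of 0.648. For all 6 genes the age groups overlapped, while over all genes tested 3.85% had every aged library below every young one. Leaving out young Paneth 4 gave log2 changes from -2.69 (Mmp7) to -1.76 (Lyz2), and still 0 of 6 passed, with adjusted p from 0.148 to 0.282.

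The 3 Paneth libraries lowest in the 6 genes, young Paneth 4 and aged Paneth 2 and 3, were the 3 highest in enterocyte markers. Summed enterocyte markers were at 9731, 2216, 4946 and 27110 CPM in young Paneth 1 to 4 and at 9489, 38750 and 31640 CPM in aged Paneth 1 to 3. All 15 enterocyte markers tested had a higher mean in aged Paneth libraries, with a median log2 change of 1.26, and 0 of the 15 passed. The 12 other Paneth markers were all lower, with a median log2 change of -1.56, and 1 passed. Goblet markers were lower for 8 of 9 tested (median -0.89) and stem cell markers for 11 of 11 (median -0.54), and 0 of either passed. In such bulk libraries fewer Paneth cells and less RNA of these genes per Paneth cell cannot be told apart. The part of RNA from these other cells in the age changes was not tested.

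**Figure D2:**
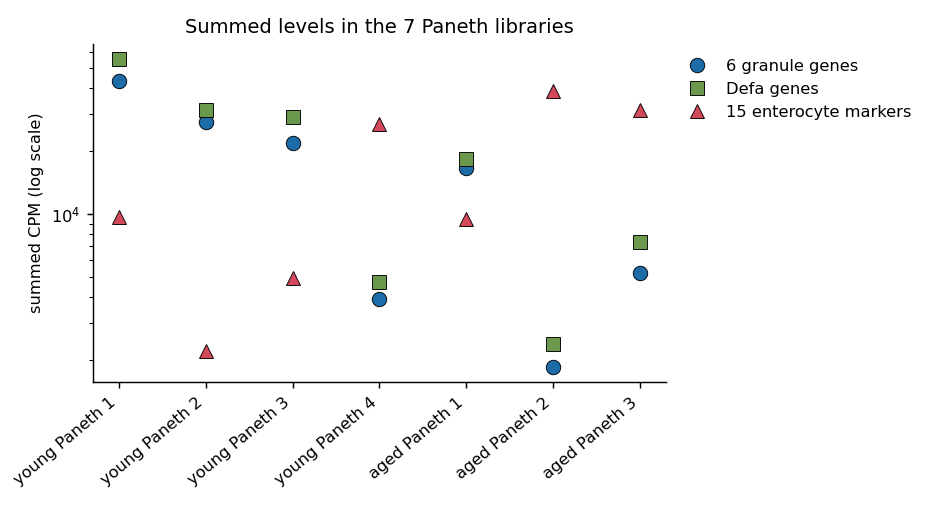
Summed CPM of the 6 genes (circles), of the alpha-defensin genes (squares) and of 15 enterocyte markers (triangles) in each of the 7 Paneth libraries, on a log scale. Libraries high in the 6 genes (young Paneth 1, 43516 CPM) were high in defensins (55081 CPM), and aged Paneth 2, with 1858 CPM of the 6 genes, had most enterocyte RNA.

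**Figure D3:**
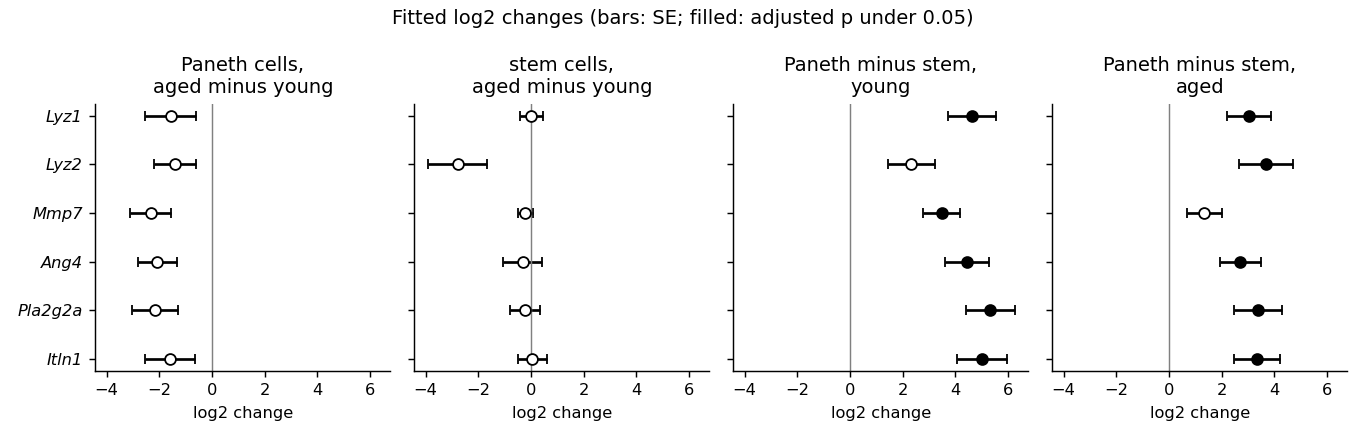
Log2 change with its SE for each of the 6 genes, for age in Paneth cells, age in stem cells and Paneth minus stem cells at each age (filled points have an adjusted p under 0.05). The age changes in Paneth cells lie below 0 (from -2.33 to -1.40), and of those in stem cells only Lyz2 (-2.79) lies far from 0.

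Relative to Lyz1, 3 genes were lower in aged Paneth libraries. Mmp7 had 1.727, 1.585, 2.143 and 2.35 reads per 100 Lyz1 reads in young Paneth 1 to 4 and 0.9675, 1.316 and 1.261 in aged Paneth 1 to 3. Pla2g2a had 0.6225, 0.7283, 0.8832 and 0.5793 in the young and 0.4837, 0.4029 and 0.4813 in the aged. It had only 36 reads in young Paneth 4, the lowest of the young, and 30 in aged Paneth 2, so its gap between the ages rests on few reads. Ang4 had 3.804, 5.111, 4.944 and 14.21 in the young and 3.532, 2.677 and 3.189 in the aged. In each case every aged library was below every young one, unlike in CPM. This pattern was noticed after the values were seen and has no test. Over all genes tested in Paneth cells, 0.17% (24 genes) had fewer reads per Lyz1 read in every aged than in any young library. It also rests on the gene chosen as reference. Per Itln1 read only Ang4 kept apart (0.0851% of genes), and per alpha-defensin read only Mmp7 (0.135%). Lyz2 and Itln1 overlapped between ages, Itln1 with 50.76 to 82.68 reads per 100 Lyz1 reads in the young and 35.79 to 59.92 in the aged.

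**Figure D4:**
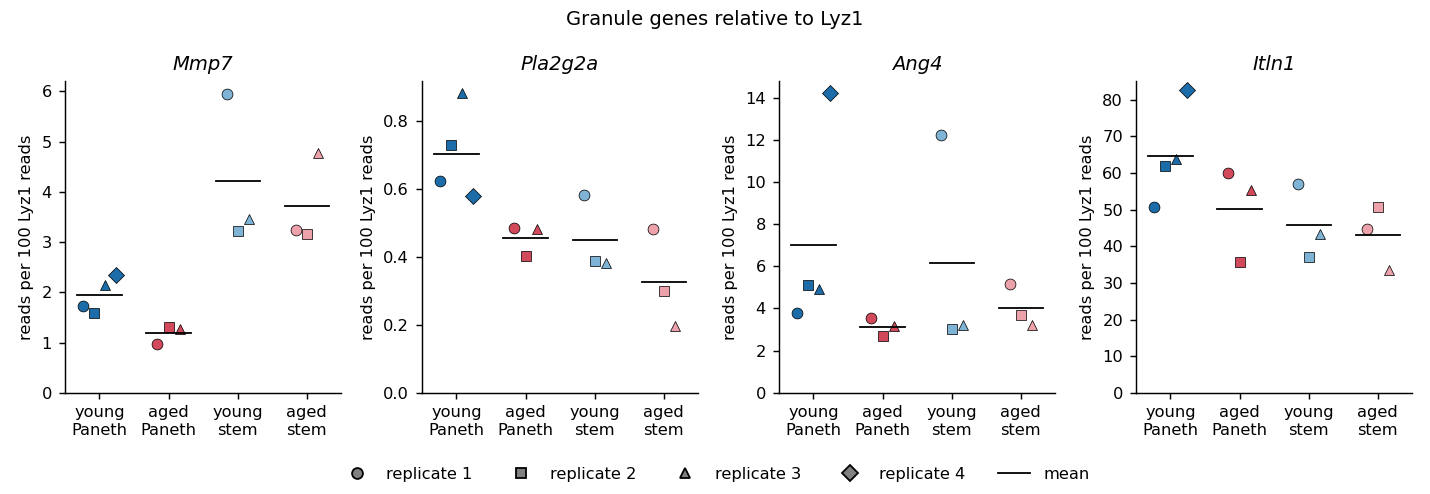
Reads of Mmp7, Pla2g2a, Ang4 and Itln1 per 100 Lyz1 reads in every library, by group, with a line at each group mean. The aged Paneth points of Mmp7 (0.9675 to 1.316), Ang4 and Pla2g2a lie below all young Paneth points, and young Paneth 4 stands alone for Ang4 at 14.21.

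Young Paneth libraries had far more RNA of 5 of the 6 genes than young stem libraries. The fold ranged from 11.2 for Mmp7 to 40.3 for Pla2g2a, and 5 of 6 passed edgeR's test as higher, against 19.6% of the 16960 genes tested. Pla2g2a differed by a log2 of 5.33 ± 0.94 (adjusted p = 0.000543 in edgeR's test), Itln1 by 5.01 ± 0.94 (0.000814) and Lyz1 by 4.63 ± 0.90 (0.001). Ang4 differed by 4.45 ± 0.83 (0.000761) and Mmp7 by 3.48 ± 0.69 (0.00117). For these 5 every young Paneth library was above every young stem library, as for 19.1% of all genes. Lyz2 did not pass, at a log2 of 2.33 ± 0.90 and an adjusted p of 0.051 in edgeR's test, and its groups overlapped because young Paneth 4 was below young stem 1 and 2. Without young Paneth 4 it passed (2.68, adjusted p = 0.0197), as it did without aged Paneth 1 (0.0305) or aged Paneth 2 (0.0387), and in DESeq2 (0.039) and limma-voom (0.00214). It did not pass with no count filter (0.119) or with library totals as the scaling, where its log2 difference was 1.08 (0.241). In edgeR's test it passed narrowly with RLE size factors as the scaling (0.0476), with 3 loci left out before scaling (0.0472) and with a filter of 5 CPM (0.0443). The limit on Lyz2 reads given with the sequences holds for the young Paneth libraries here. Without young stem 1 the same 5 genes passed.

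Aged Paneth libraries also had more of these RNAs than aged stem libraries. As higher, 5 of 6 passed edgeR's test, against 20.4% of the 16960 genes, and the folds ranged from 6.49 for Ang4 to 12.9 for Lyz2. Lyz2 differed by a log2 of 3.69 ± 1.02 (adjusted p = 0.00955 in edgeR's test), Pla2g2a by 3.38 ± 0.90 (0.00761) and Itln1 by 3.35 ± 0.88 (0.00735). In all aged libraries, however, Lyz2 reads cannot be told apart from misassigned Lyz1 reads, and aged stem libraries had only 14 to 71 of them. The Lyz2 difference is therefore uncertain. Lyz1 differed by 3.04 ± 0.85 (0.0101) and Ang4 by 2.70 ± 0.78 (0.0124). Mmp7 did not pass, at 1.35 ± 0.66 with an adjusted p of 0.113 in edgeR's test. The groups of Lyz1, Lyz2, Pla2g2a and Itln1 did not overlap, as for 25.9% of all genes, and those of Mmp7 and Ang4 did. Only 3 genes passed without aged Paneth 1 (Lyz1 0.0547, Ang4 0.0965) or without aged stem 3 (Lyz1 0.0519, Ang4 0.0523). Mmp7 passed without young Paneth 4 (0.0343) or aged Paneth 2 (0.0468).

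The age change was itself compared between the cell types in a model of all 13 libraries. None of the 6 differed by edgeR's test (0 of 6, against 0% of 16960 genes), with 1 member, Mmp7, at an unadjusted p under 0.05, as for 8.8% of all genes (1493). The largest difference was that of Mmp7, at a log2 of -2.13 ± 0.90 (Paneth change minus stem change) and an adjusted p of 0.542. The differences of Lyz1, Itln1, Ang4 and Pla2g2a were -1.59 ± 1.09, -1.66 ± 1.12, -1.75 ± 1.02 and -1.96 ± 1.16, with edgeR adjusted p from 0.627 to 0.671. Lyz2 was the only member with a positive difference, 1.36 ± 1.26 (adjusted p = 0.752 in edgeR's test). DESeq2 called 0 of the 6 and 0.59% of all genes. The limma-voom fit called Ang4 (0.0157) and Mmp7 (0.0159) among 12.1% of all genes (2058). Without young stem 1, edgeR called 0 of the 6, with differences from -2.36 (Ang4) to 0.97 (Lyz2), and 17 of all genes.

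In stem libraries 5 of the 6 genes had near-equal means at both ages. In edgeR's test 0 of 6 passed, against 0% of the 17701 genes tested, and 0 of the 6 had an unadjusted p under 0.05, against 1477 of all genes (8.34%). DESeq2 and limma-voom also called 0 of the 6. Lyz1 was at 444, 653 and 676 CPM in young stem 1 to 3 and at 795, 753 and 234 CPM in aged stem 1 to 3. Aged stem 3 was lowest of all stem libraries, here and for each of the other 5 genes. The log2 change of Lyz1 was 0.01 ± 0.43 with an edgeR adjusted p of 0.998. It was -0.22 ± 0.29 for Mmp7, -0.32 ± 0.74 for Ang4, -0.23 ± 0.56 for Pla2g2a and 0.05 ± 0.55 for Itln1, with edgeR adjusted p from 0.858 to 0.989. Each of these 5 changes was smaller than its error and took the other sign when some library was left out. Without young stem 1 again 0 of the 6 passed, while 1332 of all genes did. The changes were then -0.14 for Lyz1, -0.10 for Mmp7, 0.32 for Ang4, -0.19 for Pla2g2a and 0.05 for Itln1, with edgeR adjusted p of at least 0.882.

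The other members were low in stem libraries and not at 0. Itln1 was at 254, 242 and 293 CPM in young stem 1 to 3 and at 356, 382 and 78.6 CPM in aged stem 1 to 3. Mmp7 was at 26.5, 21.0 and 23.4 CPM in the young and at 25.8, 23.9 and 11.1 CPM in the aged. Ang4 was at 54.4, 19.8 and 21.9 CPM in the young and at 41.0, 27.6 and 7.498 CPM in the aged. Pla2g2a was the least abundant of these, at 0.462 to 3.83 CPM over the 6 stem libraries. The 6 genes fell short of Paneth levels by unequal amounts. Mmp7 had 3.221 to 5.954 reads per 100 Lyz1 reads in young stem and 3.169 to 4.764 in aged stem libraries, above all Paneth libraries, as 61.1% of genes were.

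Lyz2 was the member that differed most between the ages in stem libraries. It was at 19.9, 18.7 and 1.36 CPM in young stem 1 to 3 and at 1.91, 3.08 and 0.719 CPM in aged stem 1 to 3. Young stem 1 and 2 lay above the other 4 libraries, and young stem 3 lay among the aged. The log2 change was -2.79 ± 1.13 with an edgeR adjusted p of 0.607. It passed without young stem 3 (-3.34, adjusted p = 0.00847, among 46 genes) and not without young stem 1 (-2.37, adjusted p = 0.445).

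Reads assigned to Lyz2 were a small and near-constant part of the lysozyme reads in Paneth cells, where they cannot be told apart from misassigned Lyz1 reads. Its share of Lyz1 and Lyz2 reads together was 0.3709%, 0.5193%, 0.5146% and 0.584% in young Paneth 1 to 4 and 0.5372%, 0.4146% and 0.4864% in aged Paneth 1 to 3. The means of 0.497 ± 0.09% (SD, n = 4) and 0.479 ± 0.0616% (SD, n = 3) differed by -0.0178 percentage points, with an exact two-sided permutation p of 0.771 (smallest possible 0.0286). In stem libraries the share was 4.279% (95% Wilson interval 3.76 to 4.86), 2.79% (2.55 to 3.05) and 0.2012% (0.148 to 0.274) in young stem 1 to 3. It was 0.2402%, 0.4067% and 0.3064% in aged stem 1 to 3. Young stem 1 and 2 thus stood above all 11 other libraries by more than counting error, which is all the intervals cover. The means of 2.42 ± 2.06% (SD, n = 3) and 0.318 ± 0.0838% (SD, n = 3) differed by -2.11 percentage points, with an exact two-sided permutation p of 0.4 (smallest possible 0.1). Both p were 0.771 when adjusted over the 2 tests.

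The same young stem libraries were high in stromal and myeloid markers. Summed stromal markers were at 150.8, 154.5 and 19.58 CPM in young stem 1 to 3 and at 12.88, 23.14 and 15.46 CPM in aged stem 1 to 3. Summed myeloid markers were at 59.52, 65.25 and 22.41 CPM in the young and at 36.35, 28.69 and 31.74 CPM in the aged. In stem libraries 6 of 6 stromal markers tested were lower with age, as were 6 of 9 myeloid markers, and 0 of either passed. Summed lymphocyte markers were lower in young stem 1 and 2 (16.22 and 14.39 CPM) than in aged stem libraries (21.72 to 23.27 CPM). So were enteroendocrine markers (162.2 and 142.6 against 338.2 to 710 CPM). Paneth libraries had 62.55 to 158.8 CPM of myeloid and 65.04 to 160.4 CPM of stromal markers. The part of any of these cells in the Lyz2 level was not tested.

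**Figure D5:**
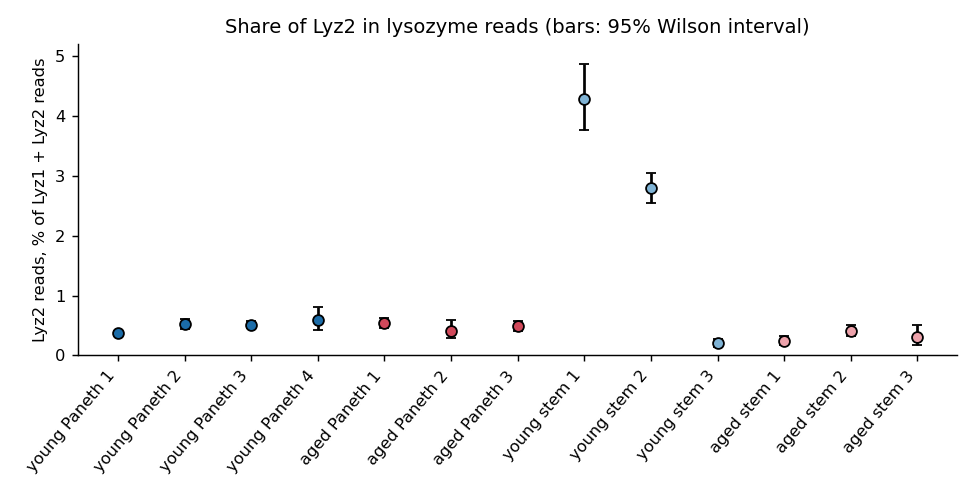
Share of Lyz2 in the reads of Lyz1 and Lyz2 (percent) in every library, coloured by group, with 95% Wilson intervals for counting error. Young stem 1 (4.279%) and young stem 2 (2.79%) lie above the other 11 libraries, which lie between 0.2012% and 0.584%.

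The 6 genes varied together over the 7 Paneth libraries. As a measure of likeness the SD of the log2 ratio of 2 genes over the libraries was taken, on CPM + 1, where 0 is a constant ratio. Each member's own log2 level had an SD of 1.56 to 1.86. The ratio of Lyz1 to Lyz2 had an SD of 0.23, that of Mmp7 to Pla2g2a 0.30, that of Lyz1 to Pla2g2a 0.33 and that of Lyz1 to Itln1 0.37. For Lyz2 the limit on its reads given with the sequences holds, as misassigned Lyz1 reads would also give a near-constant ratio. Its SD to Lyz1 therefore cannot show that the 2 genes varied together. Ang4 stood farthest from Lyz1, at 0.79. In the 6 stem libraries the SD was 1.60 for Lyz1 to Lyz2 and 0.28 for Lyz1 to Itln1. Lyz2, at 0.719 to 19.9 CPM there, also came near the added 1 CPM. From reads with nothing added, its SD to Lyz1 was 1.94 in stem and 0.23 in Paneth libraries. Stem ratios to Pla2g2a are not compared on this scale, because its 0.462 to 3.83 CPM there lie near the added 1 CPM. Computed from reads with nothing added, the SD of the log2 ratio of Mmp7 to Pla2g2a was 0.34 in Paneth and 0.63 in stem libraries. These are descriptions over libraries that share the differences in cell makeup given above.

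Of 11 alpha-defensins compared, 3 to 6 were among the 20 genes most like each member. Among genes of at least 50 CPM on average, the named genes with the lowest SD to Lyz1 were Defa17 (0.18), Defa24 (0.19) and Defa3 (0.23). For Itln1 they were Defa26 (0.16), Nucb2 (0.27) and Defa3 (0.27), and for Pla2g2a Defa26 (0.26), Ccl6 (0.27) and Nucb2 (0.33). Of the named genes outside the 6, Mmp7 was nearest to Ccl6 (0.20), a chemokine, then Spink4 (0.26) and Nucb2 (0.30). Spink4 encodes a secreted protease inhibitor-type protein and is also among the goblet markers used here. Reads assigned to Lyz2, with the same limit, were nearest among named genes to Defa17 (0.19), Nupr1 (0.21) and Lbh (0.22), and Ang4 to Spink4 (0.39) and Lbh (0.51). The median SD over the 3017 or 3018 genes compared was 1.62 to 1.92.

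Other genes of the same families and pathways were counted for comparison. Of the alpha-defensins, which Mmp7 cuts, 13 of the 24 in the data were tested in Paneth cells, 13 were lower with age, and 0 passed, with a median log2 change of -1.87. The lowest p were those of Defa22 (335 to 29.9 CPM, -3.50, edgeR adjusted p = 0.528) and Defa5 (-2.95). All 13 passed as higher in young Paneth than in young stem libraries, and 9 in aged.

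Among the angiogenin family, 3 relatives of Ang4 were tested in Paneth cells, and 3 were lower with age with a median of -0.55, while 0 passed. Rnase1, a secreted ribonuclease, had means of 105 ± 53.5 CPM (SD, n = 4) in young Paneth libraries and 52.8 ± 37.1 CPM (SD, n = 3) in aged ones, and passed as higher than in stem libraries at both ages (edgeR adjusted p of 0.000372 and 0.00422). Ang and Rnase4 had changes with age of -0.55 and -0.51 in Paneth cells. Of 5 other secreted phospholipases, 3 were higher and 2 lower with age in Paneth cells, with a median of 0.36, and 0 passed. Pla2g2f, another secreted phospholipase A2, had means of 37.7 ± 16.8 CPM (SD, n = 4) in young Paneth libraries and 10.8 ± 8.54 CPM (SD, n = 3) in aged ones (-1.83, edgeR adjusted p = 0.534). It passed as higher in young Paneth than young stem libraries (3.50, edgeR adjusted p = 0.000285). Pla2g12a and Pla2g12b had changes with age of -1.34 and 0.86 in Paneth cells. Of 10 metalloproteinases and their TIMP inhibitors, 2 were higher and 8 lower with age in Paneth cells, with a median of -0.40, and 0 passed. Mmp15, Mmp14 and Mmp19 had changes of -0.47, -0.62 and -0.52. The other 8 lysozyme family genes were too low to test in Paneth cells, and no other intelectin was in the data.

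The factors that direct Paneth differentiation gave 2 genes higher and 10 lower of 12 tested with age in Paneth cells, with a median of -0.57, and 0 passed. Gfi1, a repressor needed for secretory cells, had means of 3.84 ± 2.29 CPM (SD, n = 4) in young Paneth libraries and 0.416 ± 0.212 CPM (SD, n = 3) in aged ones (-3.12, edgeR adjusted p = 0.412). Gfi1 had only 1 to 54 reads per library over all libraries, the deeper stem libraries among them. Its aged Paneth mean of 0.416 CPM lies near 0, so its change rests on very few reads. Spdef and Atoh1, transcription factors of the secretory lineage, had changes of -1.24 and -1.38. Of 13 genes for granule sorting, autophagy and secretion, 4 were higher and 9 lower, with a median of -0.29, and 0 passed. Irgm1, an autophagy-linked GTPase, and Ern1 and Ern2, sensors of unfolded protein in the endoplasmic reticulum, had changes of -0.95, -0.90 and -1.22. Over all genes tested 50.2% were below 0 and 0.0142% passed, with a median log2 change of -0.0019.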

How the data were processed

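Gene-level RNA-seq values of 13 libraries were used, grouped by the labels' titles. The authors deposited a column named FPKM whose values have the form of expected counts: below 20, whole numbers (to within 0.001) made up 69.77% to 77.49%. Per the submitters' processing notes, the genome was mm10 and DESeq was used. Aligner, counter and annotation: not given in the sources used here. Per the labels' protocols, RNA was isolated with an RNeasy kit.

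The 36186 rows of each file were summed by Entrez ID to 35791 genes and rounded to whole counts. A total of 27 symbols stored as dates were restored. Age was tested within each cell type, and its difference and Paneth minus stem in a fit of all 13 libraries, with edgeR 4.0.16 (quasi-likelihood, TMM, filterByExpr, robust) in R 4.3.3. SE was taken as |log2 change| over the root of the F statistic. The threshold was a Benjamini-Hochberg adjusted p of 0.05 over all genes. Alternatives used DESeq2 1.42.0, limma-voom 3.58.1, other scalings, filters and libraries. Permutation tests used scipy 1.17.1.

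For each member the 3 named genes with the lowest SD of the log2 ratio (pseudocount of 1 CPM, mean of at least 50 CPM) are given, and for each of the lists the 3 genes with the smallest p. Predicted genes were not named. A gene that these rules select is not reported here. Members, lists and tests were chosen with earlier results of these data known. On simulated counts the Paneth age fit recovered 3% of genes changed by a fold of 2 and 65% of those changed by a fold of 4. In stem cells these shares were 44% and 100%. The shares hold for the simulated spread only. In the Paneth fit the common coefficient of variation between libraries was 0.406. The members spread more, as Lyz1 did with 14651 ± 10606 CPM (SD) in young and 4893 ± 4612 CPM (SD) in aged Paneth libraries. For genes of such spread the recovery may be lower than 65%.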

Additional observations from a re-analysis of the deposited data

Results flagged for a closer look

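Young Paneth 4 had 14.21 Ang4 reads per 100 Lyz1 reads, while the other 3 young Paneth libraries had 3.804 to 5.111. Its gap to the nearest library was 0.874 of the group's range, above Dixon's 95% critical value for 4 samples. It was the only one of 24 such comparisons, over 12 quantities, past that value. Chance gives about 1 in 20 per quantity when both its ends are counted. The quantities share libraries and are not independent. This library also had summed enterocyte markers at 27110 CPM, and the part of that RNA was not tested.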

How the results depend on the processing

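In Paneth cells the age changes of the 6 genes kept their negative sign under every alternative run. Their calls changed in limma-voom, where 6 passed, and in no other. Members passing as higher in Paneth than stem libraries numbered 5 to 6 in young and 3 to 6 in aged mice when single libraries were left out, and 5 to 6 under the other alternatives. For the difference of the age changes 2 passed in limma-voom. In stem cells 0 to 1 passed when libraries were left out.

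The count of all genes passing moved more. For age in Paneth cells it was 2, and 12 with library totals, 5 with 3 loci left out, 11 with no filter, 114 in DESeq2, 1686 in limma-voom, 47 with all 13 libraries in 1 fit and 0 to 20 with a library left out. For age in stem cells it was 0, and 11 with no filter, 123 in DESeq2, 743 in limma-voom, 5 with all 13 libraries and 0 to 1332 with a library left out (1332 without young stem 1). For the difference it was 0, and 15 with library totals, 6 with no filter, 100 in DESeq2, 2058 in limma-voom and 0 to 90 with a library left out. Paneth minus stem gave 6924 in young mice (11122 with library totals, 5163 to 7609 with a library left out) and 7071 in aged mice (5410 to 7623). Library totals moved the median log2 change by 0.5725 for age in Paneth cells, 0.592 for the difference, -1.233 for Paneth minus stem in young and -0.6412 in aged mice. They lowered the higher share of calls from 48.0% to 9.63% in young and from 48.8% to 22.7% in aged mice, and raised it from 0% to 50% for age in Paneth cells. The causes were not tested.

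Same-numbered libraries did not deviate together in every pair (correlations of -0.0354, -0.36 and -0.105 in Paneth and 0.05, -0.262 and 0.231 in stem cells between the ages, and -0.117, -0.0682 and 0.0683 in young and 0.146, -0.0621 and 0.0808 in aged mice between Paneth and stem cells). The numbers were therefore not taken to pair samples. With the replicate number as a block, 0 genes passed for age in Paneth cells, 15 in stem cells and 8 for the difference, and 6 members for Paneth minus stem at each age, with Lyz2 in young mice at an adjusted p of 0.00649 and Mmp7 in aged mice at 0.0311. Under the block the stem age changes of Lyz1 and Itln1 were -0.15 and -0.21.

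Stem age changes also took the other sign for Lyz1 with library totals (-0.02), in limma-voom (-0.03) and with a library left out (-0.26 to 0.39), and for Ang4 in limma-voom (0.19). With a library left out they ran from -0.43 to 0.08 for Mmp7, -0.86 to 0.32 for Ang4, -0.90 to 0.25 for Pla2g2a and -0.24 to 0.49 for Itln1. The difference of the age changes of Lyz2 was -0.84 in limma-voom. A filter of 5 CPM left Lyz2 and Pla2g2a untested in stem cells. The difference in Lyz2 share ran from -0.0599 to 0.0146 points in Paneth and from -3.22 to -1.18 in stem cells with a library left out, positive without aged Paneth 2 (0.0146) or young Paneth 4 (0.0111). Alternatives added after seeing the data gave 1 member lower per Itln1 read, 1 per alpha-defensin read, and 3 to 4 per Lyz1 read with a library left out.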
